A study of Homo sapiens with 6 samples.

Results

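Long noncoding RNAs (lncRNAs) are long transcripts that encode no protein, and many of them, though not all, are spliced and polyadenylated like messenger RNAs. Several were first described in prostate cancer, where they serve as markers of disease or act on androgen signaling, chromatin or RNA stability. The 8 lncRNAs described here are PCA3, PCGEM1, PCAT1, SCHLAP1, ARLNC1, DRAIC, NEAT1 and MALAT1. They were taken by gene name from the 35554 genes of the deposited count table, 9602 of which are lncRNA genes, because each has a known role in prostate cancer. All 8 were present in the table.

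RNA sequencing compared LNCaP, an androgen-responsive human line grown from a prostate cancer metastasis, with LNCaP-enzaR, a derivative that was selected by continuous culture in enzalutamide, an inhibitor of androgen signaling, and then kept on a lower dose. Each line was represented by 3 cultures (n = 3), harvested at about 70% confluency and labeled as biological replicates. The paper's sequencing methods describe serum-free, calcium-free starvation before treatment, and whether it applied here is not stated. Both groups share the LNCaP background, and there is 1 resistant line, so that resistance, drug exposure and the history of this line cannot be told apart. Whether enzalutamide was present when cells were collected is not given in the sources used here, and p-values measure the spread between cultures only.

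The background of each member can be stated briefly. PCA3 is transcribed from within an intron of PRUNE2, on the opposite strand, and is measured in urine as a marker of prostate cancer. PCGEM1 is a prostate-enriched transcript induced by androgen, and ARLNC1 is an androgen receptor-regulated transcript described as stabilizing the receptor's messenger RNA. SCHLAP1 marks aggressive disease and is described as an antagonist of the SWI/SNF chromatin remodeling complex, whereas PCAT1 is linked to proliferation and to repression of BRCA2. DRAIC is described as lost in androgen-independent cells and as a restraint on NF-κB signaling. NEAT1 is the architectural RNA of paraspeckles, and MALAT1 is an abundant RNA of nuclear speckles.

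MALAT1 and NEAT1 differ from the other members at their 3′ ends, which matters in libraries prepared from polyadenylated RNA. MALAT1 and the long form of NEAT1 are cut by RNase P upstream of a small tRNA-like RNA and end in a genome-encoded A-rich tract held in a triple helix, not in a poly(A) tail, whereas the short form of NEAT1 is polyadenylated. The 100 bases before the small RNA (GRCh38, chromosome 11, plus strand) are shown to let both ends be compared. Capitals mark the longest stretch that both share, of 16 bases, and the 11 bases at which both end.
MALAT1, chr11:65506017-65506116: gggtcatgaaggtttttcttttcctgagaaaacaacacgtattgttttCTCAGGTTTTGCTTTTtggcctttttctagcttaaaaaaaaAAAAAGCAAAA
NEAT1, chr11:65445441-65445540: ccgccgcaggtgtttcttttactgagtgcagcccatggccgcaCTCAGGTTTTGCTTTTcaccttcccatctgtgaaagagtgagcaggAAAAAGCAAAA
The longest run of A was 13 bases in MALAT1 and 5 bases in NEAT1, and each run ended 6 bases before the small RNA. The small RNAs that follow, as GENCODE v44 annotates them, were 57 and 58 bases long and were identical at 40 of 59 aligned positions (67.8%).
MALAT1 small RNA, chr11:65506117-65506173: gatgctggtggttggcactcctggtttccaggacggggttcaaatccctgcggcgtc
NEAT1 small RNA, chr11:65445541-65445598: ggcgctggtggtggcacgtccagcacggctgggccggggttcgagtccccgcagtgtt
How much of either RNA was recovered without a poly(A) tail was not tested, and counts per gene do not separate the forms of NEAT1.

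Upstream sequence was examined for the members that were lower in LNCaP-enzaR. The RefSeq promoter table (GRCh38.p14, 250 bases before to 50 after a start) held 4 of the 8 members, with 6 entries, and had none for PCAT1, SCHLAP1, ARLNC1 and NEAT1. The promoters of PCGEM1, PCA3 and DRAIC are shown because all 3 genes had lower counts in the resistant line. Both strands were searched for the half-site of the androgen receptor, AGAACA, and for the forkhead motifs bound by FOXA1, TGTTTAC and TATTTAC, and capitals mark every match.
PCGEM1, chr2:192749595-192749894, plus strand: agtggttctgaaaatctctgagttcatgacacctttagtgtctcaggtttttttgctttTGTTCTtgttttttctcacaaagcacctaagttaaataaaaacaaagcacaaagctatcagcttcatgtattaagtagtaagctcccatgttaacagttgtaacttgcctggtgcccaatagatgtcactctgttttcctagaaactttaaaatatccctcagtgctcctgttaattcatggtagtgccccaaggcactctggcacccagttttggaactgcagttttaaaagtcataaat
PCA3, chr9:76764186-76764485, plus strand: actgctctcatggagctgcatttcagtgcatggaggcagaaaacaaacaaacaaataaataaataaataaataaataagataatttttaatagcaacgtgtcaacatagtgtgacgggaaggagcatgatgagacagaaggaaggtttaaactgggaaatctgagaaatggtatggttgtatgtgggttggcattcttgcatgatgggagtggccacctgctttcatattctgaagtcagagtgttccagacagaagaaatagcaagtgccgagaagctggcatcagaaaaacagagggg
DRAIC, chr15:69561470-69561769, plus strand: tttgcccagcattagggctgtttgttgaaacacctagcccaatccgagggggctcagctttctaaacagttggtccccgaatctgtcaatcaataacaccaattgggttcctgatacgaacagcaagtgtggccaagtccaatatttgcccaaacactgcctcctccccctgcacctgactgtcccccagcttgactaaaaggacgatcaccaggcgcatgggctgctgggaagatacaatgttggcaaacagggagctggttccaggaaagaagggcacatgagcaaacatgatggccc
The PCGEM1 promoter held 1 half-site, read as TGTTCT on the plus strand with its first base at −191 relative to the start. No other match was found in these 3 windows. Of the 2 entries of MALAT1, which was higher in LNCaP-enzaR, 1 (chr11:65498795-65499094, plus strand) also held a half-site, at −41, so that a match was not limited to genes that were lower. Of all 35116 promoter entries, 14.79% held the half-site and 5.97% either forkhead motif. A match describes letters only, and the gene models of PCA3 and DRAIC in the count table begin upstream of these RefSeq starts.

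Of the 8 members, 6 passed the filter on low counts and were tested. SCHLAP1, DRAIC and PCA3 were lower in LNCaP-enzaR, NEAT1 and MALAT1 were higher, and PCAT1 did not pass the threshold of a 1.5-fold change with an adjusted p of 0.05 or less (edgeR's quasi-likelihood test). PCGEM1 and ARLNC1 were near the limit of detection and are given by raw counts. Calls were frequent in this comparison: 42.7% of all 19711 genes tested passed the same threshold, 23.3% higher and 19.5% lower. Among the 3720 lncRNA genes tested, 39.7% passed, 24.5% higher and 15.1% lower. The median log2 fold change was −1.18 over the 6 tested members, 0.18 over all tested lncRNA genes and 0.013 over all tested genes. In each of the 6 tested members, as in 70.6% of all tested genes, the libraries of one line did not overlap those of the other in CPM (counts per 1000000 of the TMM-scaled library).

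**Figure D1:**
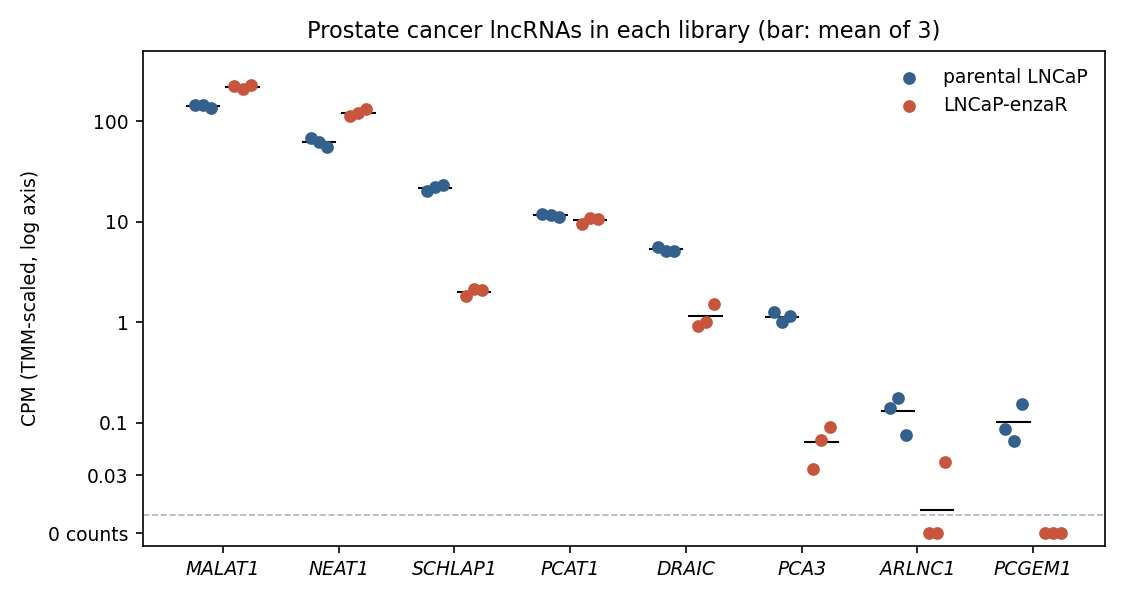
CPM of the 8 lncRNAs in each of the 6 libraries on a log axis, with libraries without a count drawn under the dashed line and bars at the mean of 3 libraries. MALAT1 and NEAT1 lie higher in LNCaP-enzaR, SCHLAP1, DRAIC and PCA3 lie lower, and PCGEM1 has 0 counts in every LNCaP-enzaR library.

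Libraries held 77759122 to 98616465 counts, and no library was a duplicate of another. LNCaP-enzaR replicate 1 stood apart from its group, with a chi-square per degree of freedom of 35.6 and 28.2 against replicates 2 and 3, where other pairs within a line had 5.56 to 9.06. Without it, log2 fold changes were −3.36 for SCHLAP1, −3.80 for PCA3, −2.06 for DRAIC, −0.10 for PCAT1, 1.04 for NEAT1 and 0.64 for MALAT1, with the same calls. Transcripts of the mitochondrial genome took up 6.87% ± 0.173 of the counts in LNCaP and 15% ± 0.416 in LNCaP-enzaR (SD, n = 3 each). All 9 luminal prostate markers were detected, with summed levels of 4200 to 4280 CPM in LNCaP and 2810 to 3120 CPM in LNCaP-enzaR. KLK3, which encodes prostate-specific antigen, was among the 5 that were lower, and KRT8, a luminal keratin, was the 1 that was higher. Summed levels were 0.044 to 0.13 and 0.034 to 0.174 CPM for 3 immune markers, 0.923 to 1.71 and 0.433 to 0.8 CPM for 3 basal markers, 14.1 to 17.2 and 6.73 to 7.16 CPM for 4 fibroblast markers, 5.47 to 6.1 and 3.93 to 4.35 CPM for 3 endothelial markers, and 1.96 to 2.31 and 2.88 to 3.11 CPM for 3 neuroendocrine markers. The fibroblast markers went both ways: COL1A1, a collagen gene that made up most of the sum, was lower (12.4 to 15.1 and 4.03 to 4.80 CPM), LUM, a proteoglycan gene, was higher (0.425 ± 0.151 and 1.44 ± 0.243 CPM), COL3A1 did not pass, and DCN, not tested, held 0, 1 and 0 counts in LNCaP and 2, 20 and 7 in LNCaP-enzaR. Their part in the results was not tested.

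SCHLAP1 (ENSG00000281131.1, chromosome 2, 180692104 to 180916939, GRCh38, plus strand) was, with MALAT1, among the members with the highest levels per length of merged exons in the parental line. The parental libraries held 1878, 2012 and 1798 counts, and those of LNCaP-enzaR 157, 187 and 209. Every resistant library was thus far below every parental one. The level decreased from 21.8 ± 1.33 to 2.01 ± 0.169 CPM (SD, n = 3 each), a 10.8-fold difference or −3.43 ± 0.099 (SE) on the log2 scale (edgeR, adjusted p = 1.28e-12). A bulk library cannot tell fewer expressing cells from less RNA per cell. The fold change stood at percentile 1.85 of the tested lncRNA genes. In GENCODE v44 the gene has 1 transcript with 5 exons and 1436 exonic bases, 14.8% of which lie in exons of AC009478.1 on the other strand. Without a stated strand setting, reads from these bases cannot be told apart.

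The nearest tested genes on each side of SCHLAP1, and those that overlap it, were lower as well. UBE2E3, a ubiquitin-conjugating enzyme gene and the next tested gene downstream at 50309 bases, went from 96.5 ± 2.73 to 19.1 ± 0.872 CPM, or −2.34 ± 0.063 (SE) on the log2 scale (edgeR, adjusted p = 7.63e-13). AC009478.1, a lncRNA gene whose span overlaps the start of SCHLAP1, went from 1.74 ± 0.188 to 0.455 ± 0.0332 CPM (log2 fold change −1.93). CWC22, a splicing factor gene 684807 bases upstream, had a log2 fold change of −1.30, and the pseudogene FTH1P20 inside SCHLAP1 had −0.94. All 3 tested genes within 500 kb were lower past the threshold, against 19.5% of all tested genes, but AC009478.1 and FTH1P20 among them overlap SCHLAP1. Farther off, ITPRID2 and RP11-366L5.1 had log2 fold changes of 1.97 and 1.96, and ZNF385B had −1.065. AC009478.1 shares exonic bases with SCHLAP1 and is not an independent measure of it.

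PCA3 (ENSG00000225937.3, chromosome 9, 76691980 to 76863307, plus strand) had the largest fold change among the tested members but a low level. LNCaP libraries held 116, 92 and 90 counts, and LNCaP-enzaR libraries 3, 6 and 9. The groups were well apart although the resistant libraries were close to 0. The level went from 1.14 ± 0.121 to 0.0645 ± 0.0281 CPM (SD, n = 3 each), or −4.09 ± 0.365 (SE) on the log2 scale (edgeR, adjusted p = 1.79e-07). Over the pooled counts of each group, 298 against 18, the parental level was 17.3-fold the resistant one (95% exact interval 10.8 to 29.6, counting error only). The difference was present without any single library, with log2 fold changes of −4.42 to −3.80.

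PRUNE2, the protein-coding gene on the opposite strand that spans PCA3, decreased too. Its counts were 43240, 40874 and 36366 in LNCaP and 5436, 6099 and 7458 in LNCaP-enzaR, from 460 ± 9.32 to 69.1 ± 6.08 CPM (log2 fold change −2.73, SE 0.067, edgeR adjusted p = 2.76e-13). PCA3 counts were 0.269%, 0.226% and 0.249% of PRUNE2 counts in the parental libraries and 0.0644%, 0.107% and 0.127% in the resistant ones, after 0.5 was added to each count. The ratio was lower in 3 of 3 resistant libraries, by 2.59-fold on average (two-sided exact permutation test, p = 0.10, the smallest that 3 against 3 allows). On the log2 scale the difference was −1.37, and −1.50 without the added 0.5. Leaving out 1 library gave −1.58 to −1.09, the smallest difference being without LNCaP-enzaR replicate 1. Exons of PRUNE2 covered 7.48% of the exonic bases of PCA3 on the other strand, so that part of the PCA3 counts could be PRUNE2 reads if strand was not used. Reads from unspliced PRUNE2 RNA could then be counted over the other PCA3 exons too, since PCA3 lies within PRUNE2. How much of the PCA3 counts came from PRUNE2 was not tested. GCNT1, a glycosyltransferase gene that is the nearest tested gene before PCA3, had a log2 fold change of −2.08, and RP11-159H20.6, the nearest after it, 0.67.

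**Figure D2:**
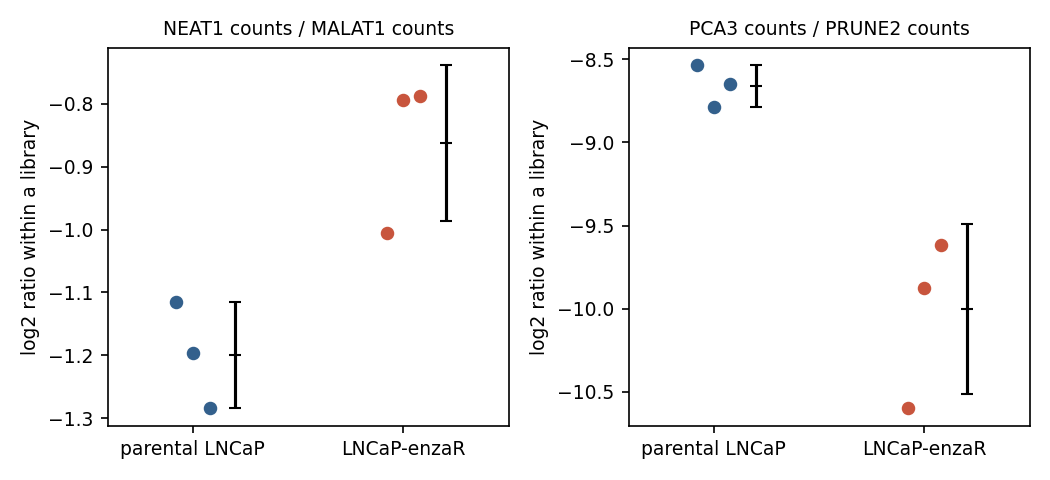
Log2 ratios of counts within each library for NEAT1 over MALAT1 (left) and PCA3 over PRUNE2 (right), with points for libraries and the mean ± SD of 3 beside them. NEAT1 gains on MALAT1 in LNCaP-enzaR, and PCA3 loses on PRUNE2, with no overlap between the lines.

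DRAIC (ENSG00000245750.10, chromosome 15, 69462921 to 69843120, plus strand) was lower in each resistant culture. Parental libraries held 523, 461 and 403 counts, against 80, 88 and 150 in LNCaP-enzaR. Replicate 3 of LNCaP-enzaR was the highest of its group and still well under the lowest parental count. The level went from 5.28 ± 0.320 to 1.15 ± 0.319 CPM (SD, n = 3 each), or −2.20 ± 0.173 (SE) on the log2 scale (edgeR, adjusted p = 4.56e-08), which was −2.45 without LNCaP-enzaR replicate 3. FOXA1, a factor described as an activator of DRAIC, had −0.05 ± 0.048 (SE) on the log2 scale (edgeR, adjusted p = 0.378), at 439 ± 1.70 and 424 ± 8.28 CPM. The nearest tested genes, RP11-253M7.4 and TLE3, a Groucho-family corepressor gene, had log2 fold changes of −0.25 and −0.26 and did not pass the threshold. The gene model combines 74 transcripts in GENCODE v44 over the long span given above. PCAT29, a lncRNA described near DRAIC, had no row of its own here. Whether its reads were counted as DRAIC was not tested.

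PCGEM1 (ENSG00000227418.6, chromosome 2, 192749845 to 192776899, plus strand) was detected in the parental line only at the limit. LNCaP libraries held 8, 6 and 12 counts, and the LNCaP-enzaR libraries 0, 0 and 0. Against a floor of 3 counts over the 3 resistant libraries, or 0.011 CPM, the parental level was 9.06-fold that floor. Over pooled counts of 26 against 0, the lower end of the 95% exact interval was 6.85-fold (counting error only). The exact permutation test on CPM gave p = 0.10, the smallest this design allows. Because of its low counts PCGEM1 did not pass the filter. Tested without a filter, it had an adjusted p of 0.00161 by edgeR. The nearest tested gene, 554912 bases upstream, was TMEFF2, which encodes a transmembrane protein of prostate epithelium, at 49.7 ± 1.96 CPM in LNCaP and 0.063 ± 0.055 CPM in LNCaP-enzaR, where it held 1 to 12 counts. SLC39A10, a zinc importer gene and the next tested gene downstream at 2799078 bases, had a log2 fold change of −0.21 and did not pass the fold limit.

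ARLNC1 (ENSG00000260896.6, chromosome 16, 80826074 to 80892682, minus strand) was also near the floor. Counts were 13, 16 and 6 in LNCaP and 0, 0 and 4 in LNCaP-enzaR. The lowest parental and the highest resistant library were 2 counts apart, which is within counting error. Over pooled counts of 35 against 4, the parental level was 9.14-fold the resistant one (95% exact interval 3.27 to 35.4, counting error only), and the exact permutation test on CPM gave p = 0.10. ARLNC1 did not pass the filter. Without a filter its edgeR adjusted p was 0.0132. In GENCODE v44, 33.7% of its exonic bases lie in exons of another gene on the same strand. CMC2, a mitochondrial protein gene on one side, was lower (log2 fold change −1.54), whereas CDYL2, a chromodomain gene on the other side, had −0.48 and did not reach the fold limit.

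PCAT1 (ENSG00000253438.4, chromosome 8, 126556323 to 127419050, plus strand) did not pass the threshold. LNCaP libraries held 1099, 1055 and 876 counts, and LNCaP-enzaR libraries 815, 953 and 1051. In CPM the parental libraries, at 11.2 to 11.9, were just above the resistant ones, at 9.44 to 10.8. The log2 fold change was −0.17 (SE 0.084, 95% interval −0.35 to 0.014, edgeR adjusted p = 0.0958), and the interval excludes a 1.5-fold change in either direction.

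Other genes that overlap PCAT1 were higher at low counts. CASC8, a lncRNA gene, had 36, 42 and 36 counts in LNCaP and 112, 101 and 101 in LNCaP-enzaR (log2 fold change 1.40, SE 0.243, edgeR adjusted p = 1.47e-04). CASC19 went from 0.206 ± 0.017 to 0.604 ± 0.185 CPM (1.55) and the POU5F1 retrogene POU5F1B from 0.189 ± 0.158 to 0.840 ± 0.0808 CPM (2.14). PRNCR1, a lncRNA reported to bind the androgen receptor, held 7, 1 and 0 counts in the parental and 16, 13 and 14 in the resistant libraries (log2 fold change 2.34, edgeR adjusted p = 0.0205). Its log2 fold change was 1.82 to 4.45 over the fits that left out 1 library, and its call was lost without LNCaP replicate 2, LNCaP replicate 3 or LNCaP-enzaR replicate 1, with an edgeR adjusted p of up to 0.0845. Those counts are too few for a firm statement. LRATD2, which overlaps the start of PCAT1, had 0.11 and did not pass. In GENCODE v44, exons of LRATD2 and POU5F1B cover 12.2% of the exonic bases of PCAT1. Without a stated strand setting, reads from these bases cannot be told apart. POU5F1B shares sequence with POU5F1, and its reads are uncertain.

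**Figure D3:**
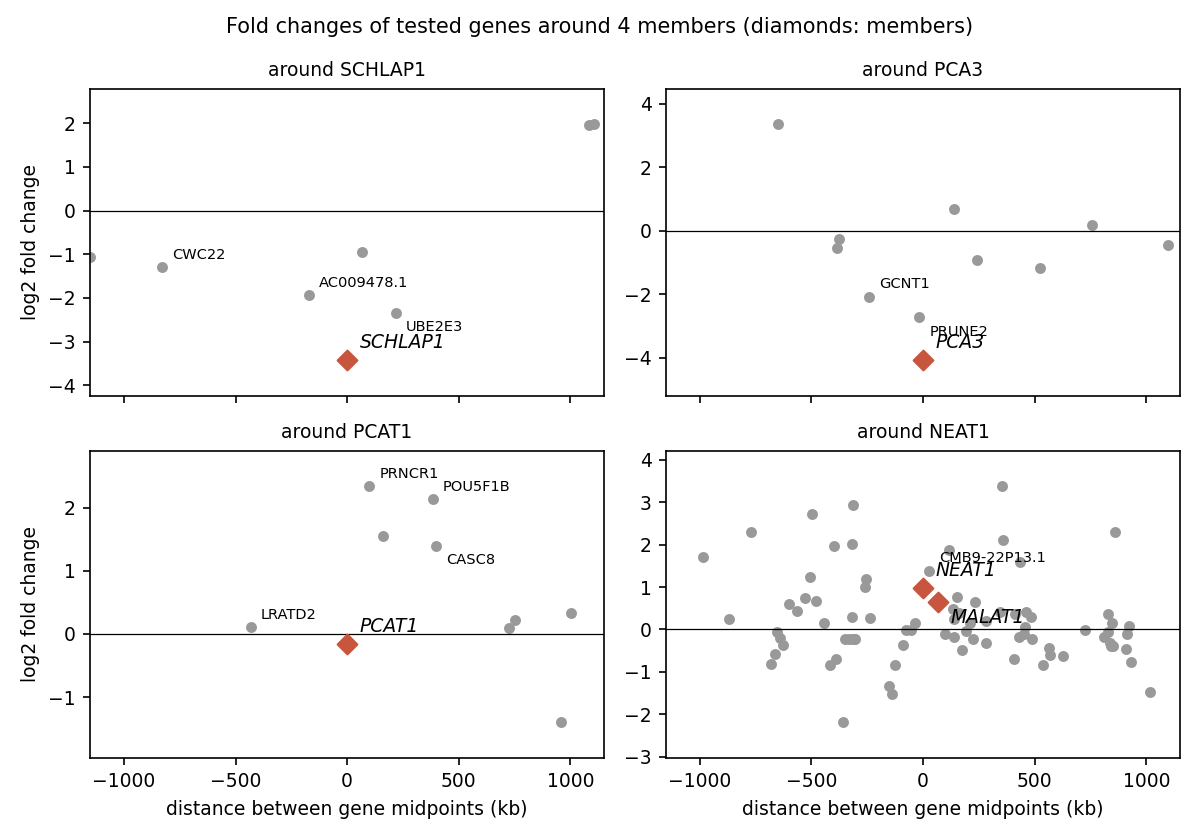
Log2 fold changes of tested genes against the distance between gene midpoints in kb around SCHLAP1, PCA3, PCAT1 and NEAT1, with members as diamonds. The neighbors of SCHLAP1 within 500 kb lie under 0, the genes inside PCAT1 lie above it, and NEAT1 and MALAT1 stand among neighbors on both sides of 0.

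NEAT1 (ENSG00000245532.9, chromosome 11, 65422774 to 65445540, plus strand) was higher in the resistant line. LNCaP libraries held 6213, 5688 and 4376 counts, against 9606, 10655 and 13170 in LNCaP-enzaR. All resistant libraries were above all parental ones. The level rose from 61.8 ± 5.75 to 122 ± 10.7 CPM (SD, n = 3 each), or 0.98 ± 0.079 (SE) on the log2 scale (edgeR, adjusted p = 5.92e-08), or 1.97-fold. CMB9-22P13.1, a transcribed pseudogene that begins 9718 bases downstream, rose from 4.84 ± 1.07 to 12.7 ± 1.01 CPM (log2 fold change 1.39, SE 0.132, edgeR adjusted p = 3.47e-07). FRMD8, the protein-coding gene upstream, had a log2 fold change of 0.15 and did not pass. Within 500 kb of NEAT1, 15 of 54 tested genes were higher and 6 lower. Over all tested genes, 23.3% were higher and 19.5% lower.

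MALAT1 (ENSG00000251562.8, chromosome 11, 65497688 to 65506516, plus strand), the member with the most counts, was higher by just over the fold limit. The counts were 13459, 13040 and 10659 in LNCaP and 19275, 18470 and 22723 in LNCaP-enzaR, again without overlap. The level rose from 141 ± 5.12 to 221 ± 10.2 CPM (SD, n = 3 each), or 0.64 ± 0.056 (SE) on the log2 scale (95% interval 0.52 to 0.76, edgeR adjusted p = 1.50e-07). The 1.5-fold limit, 0.585 on the log2 scale, lies inside this interval. Genes on the other strand in GENCODE v44, TALAM1 among them, cover 83.7% of the exonic bases of MALAT1, and the table had no row for TALAM1.

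NEAT1 rose more than its neighbor MALAT1. NEAT1 counts were 46.2%, 43.6% and 41.1% of MALAT1 counts in the parental and 49.8%, 57.7% and 58.0% in the resistant libraries. The log2 ratio was −1.20 ± 0.0846 and −0.86 ± 0.124 (SD, n = 3 each), a difference of 0.34 that was present in 3 of 3 resistant libraries (two-sided exact permutation test, p = 0.10, the smallest possible). MALAT1 was the 9th and NEAT1 the 19th most abundant of 9602 lncRNA genes by CPM in LNCaP, and they were the 3rd and 9th in LNCaP-enzaR. SCHLAP1 went from rank 68 to rank 822.

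**Figure D4:**
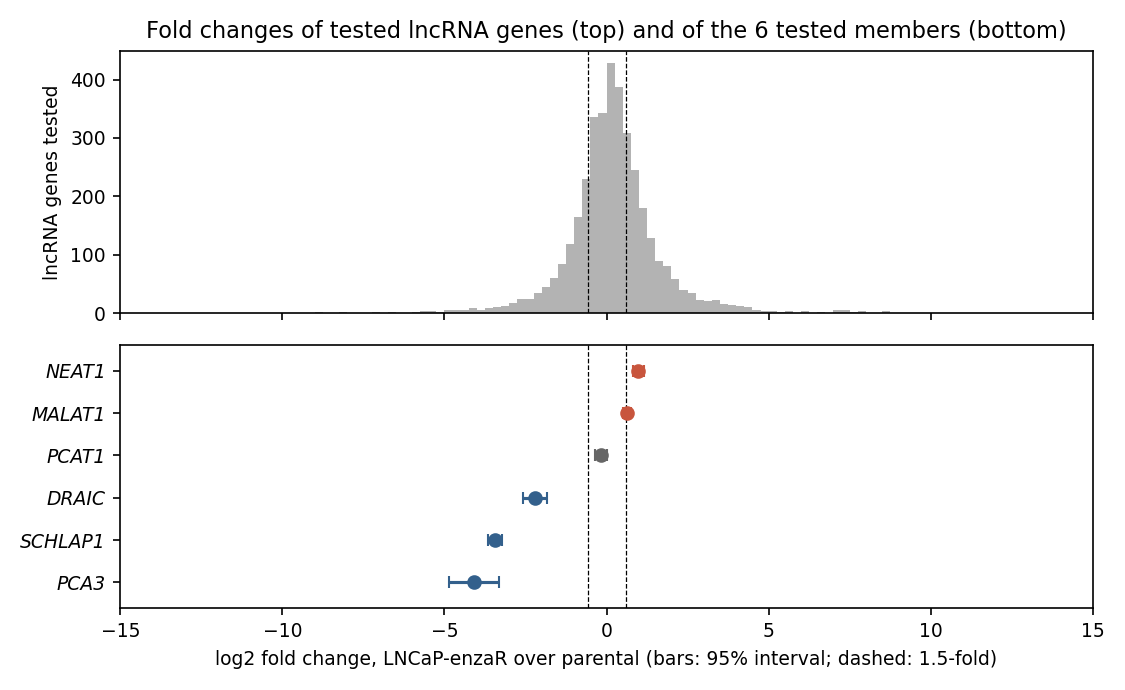
Distribution of log2 fold changes over the 3720 tested lncRNA genes (top) and the 6 tested members with 95% intervals (bottom), with dashed lines at 1.5-fold. PCA3, SCHLAP1 and DRAIC lie in the lower tail, PCAT1 between the lines, and MALAT1 on the upper line.

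Per kilobase of merged exons, the order of the members differed between the lines. In LNCaP, SCHLAP1 had 15.2 ± 0.929 RPKM and MALAT1 13.6 ± 0.491 RPKM, ahead of NEAT1 at 2.71 ± 0.252, PCAT1 at 0.624 ± 0.0197 and DRAIC at 0.168 ± 0.0102 RPKM (SD, n = 3 each). PCA3 at 0.0802 ± 0.00855 and PCGEM1 at 0.0594 ± 0.0265 RPKM overlapped, and ARLNC1 was lowest at 0.0195 ± 0.00751 RPKM. In LNCaP-enzaR, MALAT1 led with 21.1 ± 0.981 RPKM, followed by NEAT1 at 5.34 ± 0.471, SCHLAP1 at 1.40 ± 0.118 and PCAT1 at 0.556 ± 0.0393 RPKM. The order of SCHLAP1 and MALAT1 in the parental line depends on the length used. The MALAT1 gene on which counts were made spans 8829 bases, against 10434 exonic bases in GENCODE v44, and over that span MALAT1 had 15.4 to 16.5 RPKM in LNCaP, which overlaps the 14.1 to 15.9 RPKM of SCHLAP1. This alternative was chosen after seeing the data. Lengths are those of all GENCODE v44 transcripts merged, which lowers the values of genes with many transcripts such as DRAIC and PCAT1. NEAT1 was divided by 22767 bases, a length that covers its long form, although counts do not separate its forms. Its value would be higher over the short form alone, so its place in the order also depends on the length used.

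Other lncRNAs described in prostate cancer went both ways. Of 36 listed, 30 were in the table and 26 were tested, with 8 higher, 6 lower and 12 not past the threshold (53.8% past, against 39.7% of all tested lncRNA genes). Their median log2 fold change was 0.33. CASC8, CASC19 and PRNCR1, described above beside PCAT1, were among those that were higher. Among those with a mean of at least 1 CPM, PRKAG2-AS1 rose from 0.275 ± 0.0627 to 2.74 ± 0.260 CPM (log2 fold change 3.31, SE 0.220, edgeR adjusted p = 7.24e-09). PCAT7, KDM4A-AS1 and PCAT6 were higher with log2 fold changes of 0.99, 0.98 and 0.80. PCAT19 fell from 3.00 ± 0.0934 to 0.789 ± 0.0678 CPM (−1.92), SNHG1, a host gene of small nucleolar RNAs, from 42.4 ± 2.12 to 17.7 ± 1.43 CPM (−1.26) and LINC00963 from 55.6 ± 2.90 to 29.7 ± 0.791 CPM (−0.91). Named after their values were seen, POTEF-AS1, an androgen-induced transcript, had a log2 fold change of −4.00 and SOCS2-AS1, also androgen-induced, 2.57. GAS5, a growth arrest-linked lncRNA, had 0.34 and TUG1 −0.12, and neither reached the fold limit. The 4 that were not tested reached at most 7 counts in any library.

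The genes for paraspeckle proteins, which assemble on NEAT1, were mostly lower in LNCaP-enzaR. Of 24 tested, 14 were lower and 1 was higher past the threshold, and 9 did not reach it (62.5% past, against 42.7% of all tested genes). Their median log2 fold change was −0.66. CPSF7, a cleavage factor gene, fell from 139 ± 0.862 to 59.4 ± 2.81 CPM (log2 fold change −1.23) and HNRNPR, a ribonucleoprotein gene, from 263 ± 2.72 to 135 ± 3.95 CPM (−0.97). Of the paraspeckle protein genes SFPQ, NONO and PSPC1, SFPQ was lower (−0.94), whereas NONO (−0.27) and PSPC1 (−0.18) did not reach the fold limit. CPSF6 (−0.69) and NUDT21 (−0.77), subunits of the cleavage factor that favors the short form of NEAT1, were lower. ZC3H6 (0.91) was the 1 that was higher. NONO, SFPQ, PSPC1, CPSF6, NUDT21 and ZC3H6 were named after their values were seen.

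Genes for nuclear speckle proteins and for enzymes that process MALAT1 were lower or did not reach the threshold. Of 19 tested, 6 were lower past the threshold, 0 were higher by edgeR or DESeq2, and 13 did not reach it. The share past it was 31.6%, against 42.7% of all tested genes. Of all tested genes, 19.5% were lower. With an adjusted p of 0.05 or less by edgeR and no fold limit, 14 of the 19 were lower and 1 was higher, ELAC2. Their median log2 fold change was −0.40. The serine/arginine-rich splicing factor genes SRSF3, SRSF2 and SRSF1 had the largest changes. SRSF3 fell from 537 ± 11.7 to 254 ± 11.3 CPM (log2 fold change −1.08), SRSF2 from 164 to 80.9 CPM (−1.02) and SRSF1 from 184 to 91.6 CPM. SON and SRRM2, the scaffold genes of speckles, had log2 fold changes of −0.14 and −0.07. ELAC2, which encodes the RNase Z that trims the MALAT1 small RNA, had 0.32, short of the fold limit. SON, SRRM2 and ELAC2 were named after their values were seen.

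**Figure D5:**
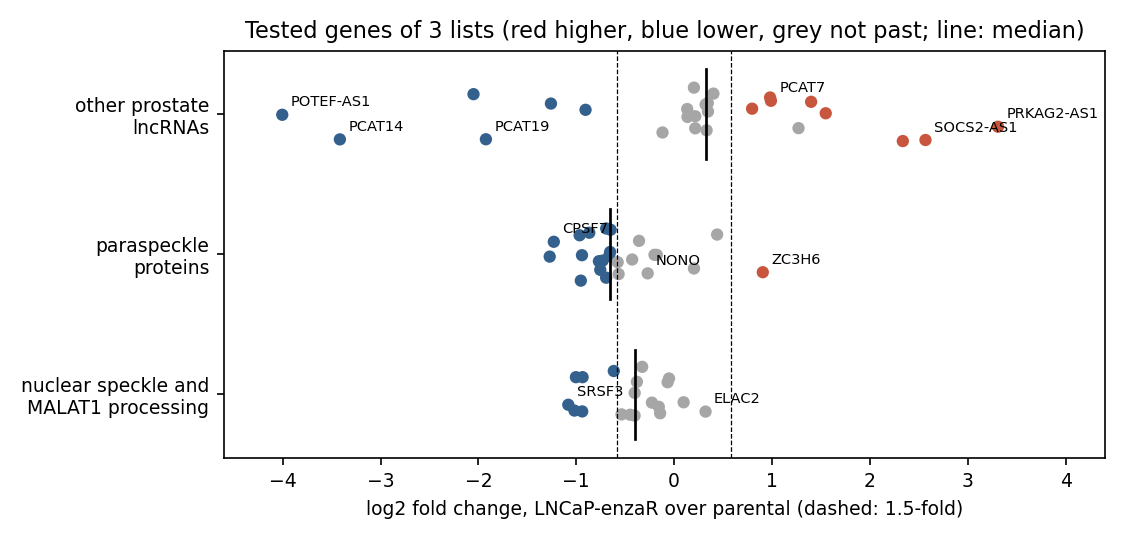
Log2 fold changes of the tested genes of 3 lists, with red for higher and blue for lower past the threshold, grey for the rest, a line at each median and dashed lines at 1.5-fold. The other prostate lncRNAs spread to both sides, and 14 of 24 paraspeckle protein genes lie past the lower limit.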

How the data were processed

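Polyadenylated RNA libraries of 6 cultures were sequenced as paired-end reads. The authors trimmed adapters with Cutadapt, aligned reads to GRCh38 with STAR and GENCODE v38, and deposited raw counts per gene from featureCounts, not normalized. Strand setting and treatment of multiply mapped reads are not given in the sources used here. Groups and replicate numbers came from sample titles. In edgeR 4.0.16 (R 4.3.3), genes were kept by filterByExpr, scaled by TMM and tested across the whole table by the quasi-likelihood F-test (robust, no covariate). Benjamini-Hochberg adjustment covered 19711 genes, with limits of 0.05 and 1.5-fold. SE is the log2 fold change divided by the root of F. The test was checked on simulated data. The study's DESeq2 (here 1.42.0) was an alternative, as were other scalings and filters, a replicate block, leaving out each library and other fold limits. Exons, lengths and strands came from GENCODE v44, which held 35473 of 35554 gene identifiers, and RPKM is CPM per kilobase of merged exons.

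The members and gene lists were chosen with earlier results of these data known. Named genes are the members, PRUNE2 and PCAT29, the nearest and overlapping tested genes, other prostate lncRNAs past the threshold and averaging 1 CPM or more, the 3 largest changes of each protein list, and for each tested member the gene with the closest profile. Some genes that this rule names are not reported here. Intervals and floors cover counting error only, since amplified reads are not independent molecules.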

Additional observations from a re-analysis of the deposited data

How the results depend on the processing

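At the 1.5-fold limit, the 6 tested members kept direction and call under every other test, scaling, filter, block and left-out library that tested them. Log2 fold changes ranged from −3.48 to −3.33 for SCHLAP1, −2.45 to −2.06 for DRAIC, −4.42 to −3.80 for PCA3, 0.90 to 1.08 for NEAT1, 0.61 to 0.74 for MALAT1 and −0.20 to −0.067 for PCAT1. PCA3 was not tested where at least 10 counts were required in every library. With a fold limit of 2, 3 members, 2 paraspeckle protein genes, 3 nuclear speckle genes and 5561 genes in all were past the threshold, and NEAT1 and MALAT1 lost their calls. With no minimum fold, these were 5 members, 24, 15 and 13074. Without a filter, 7 members were past it, since PCGEM1 and ARLNC1 then entered. Leaving out 1 library gave 5 to 6 members, since ARLNC1 then passed the filter in 4 of the fits with an adjusted p of 0.00341 to 0.0455. Upper-quartile scaling shifted all genes by a median of 0.10 (log2) and raised the share of higher calls from 54.5% to 60.9%. Of the 24 paraspeckle protein genes, 11 were lower past the threshold under that scaling. The main fit had 14 and library totals without TMM gave 16, with 1 higher in each of these fits. Of 46 named genes tested, 44 kept direction and call at the 1.5-fold limit, whereas 11 of the 37 past it lost their call at 2-fold, a count added after seeing the data. CASC11, the next tested gene after PCAT1 (0.099), ranged from −0.21 to 0.41 over the fits that left out 1 library, turning to −0.15 without LNCaP replicate 1 and −0.21 without LNCaP-enzaR replicate 2. PRNCR1 lost its call in 3 fits. CASC11 was past the threshold in no fit.

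Equal replicate numbers did not mark pairs: deviations of same-numbered libraries correlated at −0.211, 0.00849 and −0.116. With the replicate block, 5 members and 8212 genes were past the threshold, and the ratios of NEAT1 to MALAT1 (0.34) and PCA3 to PRUNE2 (−1.37) had a sign-flip p of 0.25 by exact enumeration, the smallest that 3 pairs allow. Depth limits statements on PCGEM1 and ARLNC1, with at most 16 counts in a library, and on the level of PCA3 in LNCaP-enzaR, with at most 9.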

Other observations

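MALAT1 and NEAT1 made up 83.5% ± 0.961 of the counts of the 8 lncRNAs in LNCaP and 96.2% ± 0.300 in LNCaP-enzaR (SD, n = 3 each), higher in 3 of 3 resistant libraries (two-sided exact permutation test, p = 0.10, the smallest possible). All lncRNA genes together took 1.04% ± 0.01 and 1.10% ± 0.02 of the counts. TRIB1, a pseudokinase gene and the nearest tested gene upstream of PCAT1, rose from 16.4 ± 0.953 to 131 ± 1.48 CPM, or 3.00 ± 0.064 (SE) on the log2 scale (edgeR, adjusted p = 6.60e-14), while PCAT1 itself had −0.17.

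Among 12840 tested genes with a symbol and a mean of at least 1 CPM, the one closest in profile over the 6 libraries, by Euclidean distance of centered log2 (CPM + 0.5), was MMP16, a membrane-type matrix metalloproteinase gene, for SCHLAP1 (distance 0.154), GPR19, an orphan receptor gene, for DRAIC (0.101) and C2orf27A for PCA3 (0.0774). It was AUH, a gene for an RNA-binding mitochondrial hydratase, for NEAT1 (0.105), MAN2A2, a Golgi mannosidase gene, for MALAT1 (0.0733) and GATC for PCAT1 (0.03). With 2 lines, such closeness rests mostly on the size of the difference between them on this scale. The added 0.5 CPM shrinks differences at low levels. C2orf27A thus had a log2 fold change of −1.77 in the fit, against −4.09 for PCA3.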
